A study of Homo sapiens with 10 samples.

Results

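KDM5A (JARID1A, RBP2) is a histone demethylase of the JmjC class that takes methyl groups off lysine 4 of histone H3, a mark found at the promoters of active genes. It was first described as a partner of the retinoblastoma protein, and it works beside NuRD and SIN3 type corepressor complexes. Re-expression of a deleted gene is a common test of which differences of a knockout line follow the gene itself. The comparison described here asks how far HCT116 KDM5A-/- cells that carried wild-type KDM5A for 24 h stood from parental HCT116 cells.

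HCT116 is an established human colorectal carcinoma line. Of the 10 samples in the series, 5 enter this comparison: 3 of KDM5A-/- cells transfected with a plasmid for wild-type KDM5A and 2 of parental cells transfected with empty vector. The 3 samples of KDM5A-/- cells with empty vector are given beside them, and 2 samples of KDM5A-/- cells with a mutant KDM5A entered only the shared estimate of the spread. Per the labels, all cells were taken 24 h after transfection and sorted for GFP, total RNA was extracted with Trizol, and the knockout culture alone was kept in G418. The knockout is 1 line bought from the supplier of the parental cells, so genotype, clone, G418 and, for the wild-type samples, the plasmid cannot be told apart in a comparison with parental cells. The labels do not say whether replicates are separate cultures. The p-values therefore rest on the spread between these libraries alone, and that spread may be technical. Of 57993 gene symbols in the tables, 17779 reached a value of 1 in 2 or more libraries and were tested.

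The values are labelled FPKM (fragments scaled by transcript length and by the library's total). They were taken back to the linear scale, summed per symbol and scaled between libraries. Before that scaling the linear values had nearly the same sum in every library, which FPKM alone does not fix. A log2 fold change is a difference of mean log2(scaled FPKM + 1), which understates the change of low genes. A gene passed at a Benjamini-Hochberg adjusted p under 0.05 in limma over all genes tested. The deposited tables hold no read counts, so the depth behind each value is unknown.

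The libraries were alike in the number of symbols at a value of 1 or more, 15509 to 16272. Parental library 2 stood apart from parental library 1: protein-coding genes took 89.88% of its summed FPKM against 92.7% in library 1, and cytosolic ribosomal protein genes took 16.23% against 14.0%. In the 6 knockout libraries with empty vector or wild-type KDM5A these shares were 92.68 to 93.04% and 12.69 to 13.65%, and in the 2 mutant libraries 90.62 to 90.66% and 15.59 to 16.12%. Without parental library 2 and the mutants, a choice made after seeing the data, 1173 genes were higher and 845 lower than in parental cells with wild-type KDM5A. The colorectal markers were present in all 8 libraries, with a summed scaled FPKM of 4203.4 to 4930.7 over 12 markers. KRT8 (1460 to 1890) and KRT19 (1150 to 1330) led them, 8 of the 12 reached a value of 1 in any library, and the differentiation marker TFF3 was at 0 in all. Of 21 markers of other cell types, 5 reached a value of 1 and their sum was 22.8 to 36.8, most of it COL1A1 (14.9 to 28.7). INS was at 0 in all 8, and CD3E, PECAM1 and PTPRC stayed below 1.

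KDM5A itself was at a scaled FPKM of 13.3 and 17.7 in the 2 parental libraries and at 12.2, 15.3 and 12.3 in the 3 knockout libraries with empty vector. With the wild-type plasmid it was at 13452, 16237 and 15598. Its transcript level thus did not separate knockout from parental cells, and the re-expressing cells stood 9.85 ± 0.13 (SE, log2) above parental cells (adjusted p = 1.5e-09). The level does not check the knockout. RNA from the plasmid and from the chromosome cannot be told apart in these tables. KDM5B, the close relative of KDM5A with the same substrate, was at 24.5 and 25.2 in parental cells, at 25.8, 26.2 and 27.0 in knockout cells with empty vector, and at 15.6, 18.6 and 17 with wild-type KDM5A. All 3 re-expressing libraries lay below all 5 others. KDM5B fell by 0.52 ± 0.08 against parental cells (adjusted p = 0.0044). KDM5C, the X-linked relative, was at 48.7 and 46.6 in parental cells and at 49.9 to 58.7 with wild-type KDM5A, which did not pass (0.17 ± 0.10, adjusted p = 0.298).

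Distances between whole libraries were measured as the median absolute difference of log2(scaled FPKM + 1) over the genes tested. The 2 parental libraries lay 0.186 apart. Knockout libraries with empty vector lay 0.206 to 0.254 from a parental library, and those with wild-type KDM5A lay 0.231 to 0.271 from one. Seen from parental library 1, the empty-vector libraries were at 0.206 to 0.213 and the wild-type libraries at 0.231 to 0.240. Seen from parental library 2, the ranges were 0.240 to 0.254 and 0.259 to 0.271. With this scaling, all 3 libraries with wild-type KDM5A lay farther from each parental library than all 3 with empty vector did. The mean distance to the 2 parental libraries was 0.229 ± 0.0048 (SD, n = 3) for the empty-vector libraries and 0.250 ± 0.0053 (SD, n = 3) for the wild-type ones (two-sided exact permutation p = 0.1, the smallest that 3 against 3 allows). On the values as deposited, the difference between these means shrank from 0.021 to 0.009, and the order was reversed seen from parental library 2, where the wild-type libraries were at 0.265 to 0.272 and the empty-vector ones at 0.275 to 0.299. The 2 knockout groups lay 0.176 to 0.192 from each other, and replicates within them 0.113 to 0.135. Other measures set the parental pair wider apart. Its root mean square difference was 0.511, against 0.474 to 0.5 between parental library 1 and the empty-vector libraries. From parental library 2 those were at 0.567 to 0.578. On the values as deposited, the median difference of the parental pair was 0.251, against 0.21 to 0.216 and 0.275 to 0.299. On both, parental library 1 lay nearer to the empty-vector libraries than to parental library 2.

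**Figure D1:**
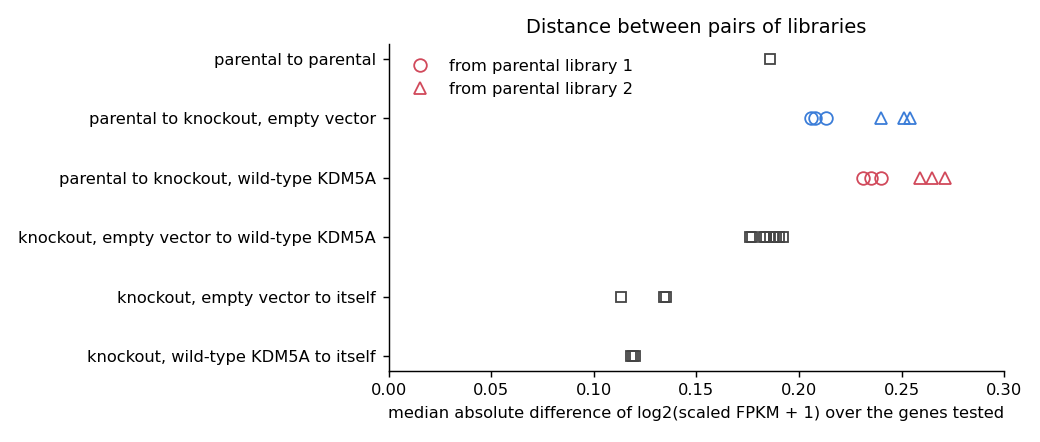
Distance between pairs of libraries, as the median absolute difference of log2(scaled FPKM + 1) over 17779 genes; each symbol is 1 pair, circles are measured from parental library 1 and triangles from parental library 2. The wild-type KDM5A libraries lie at 0.231 to 0.271 from the parental libraries, to the right of the empty-vector libraries measured from the same parental library, an order that on the values as deposited held from parental library 1 and was reversed from parental library 2.

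Between re-expressing and parental cells, 1427 genes were higher (8.03% of those tested) and 1159 were lower (6.52%), together 14.5%. At an unadjusted p under 0.05 there were 5425. Of the protein-coding genes tested 17.3% passed, and of the other genes 6.7%. These are bulk samples, in which fewer cells of a kind and less RNA per cell cannot be told apart. Most changes were small: 137 of the higher and 122 of the lower genes passed 1 on the log2 scale. Between knockout cells with empty vector and parental cells, 861 genes were higher (4.84%) and 728 lower (4.09%), together 8.94%. These 2 comparisons use the same parental libraries, so their values are set side by side for each gene and no overlap between them is counted. Between the 2 knockout groups 4.54% of genes passed. On the values as deposited, without scaling between libraries, the split against parental cells was 791 higher and 1012 lower with wild-type KDM5A, and 972 higher and 374 lower with empty vector, whose median over all genes tested was then 0.074. Without parental library 2 the count was 832 higher and 601 lower, and without any 1 of the 3 wild-type libraries it was 882 to 920 higher and 633 to 663 lower.

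Some of the largest differences from parental cells were already full-sized in knockout cells with empty vector. LIPG, an endothelial-type lipase, was at 18.6 and 16.1 in parental cells, at 0.242, 0.146 and 0.196 with empty vector, and at 0.211, 0.0364 and 0.0992 with wild-type KDM5A. No knockout library came near a parental one. LIPG fell by 4.04 ± 0.18 (adjusted p = 9.6e-06), the largest fall by the rule that chose the named genes. MMP14, a membrane-bound matrix protease, was at 21.9 and 33.0 in parental cells, at 2.59 to 3.23 with empty vector and at 2.11 to 3.56 with wild-type KDM5A. It fell by 2.94 ± 0.21 (adjusted p = 8.6e-05). SOX4, a developmental transcription factor, was at 40.9 and 37.7, then at 9.36 to 10.9, then at 9.56 to 10.1. It fell by 1.90 ± 0.10 (adjusted p = 1.6e-05). ZRSR2, an X-linked factor of the minor spliceosome, was at 9.34 and 8.87 in parental cells and between 0.349 and 0.63 in all 6 knockout libraries. SATB1, a chromatin organiser, CPVL, a carboxypeptidase, FAM221A and TNNC1, a troponin subunit, followed the same order of levels.

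SPARC, a secreted matrix glycoprotein, had the largest rise of this kind. SPARC was at 0.505 and 0.42 in parental cells, at 7.51, 8.47 and 6.46 with empty vector, and at 5.69, 6.92 and 7.40 with wild-type KDM5A. The 2 knockout groups overlapped, and both lay far above the parental libraries (2.38 ± 0.15 for wild-type KDM5A, adjusted p = 4.9e-05). HKDC1, a hexokinase-domain protein, was at 7.68 and 8.14, then at 28 to 33.6, then at 28.4 to 32.3. FXYD3, a regulator of the sodium pump, was at 5.86 and 5.65, then at 16.6 to 21.7, then at 21.1 to 22.9. TMPRSS13, a membrane serine protease, was at 0.789 and 0.708 in parental cells and between 4.01 and 7.58 in the knockout libraries.

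For these 12 genes the difference between the 2 knockout groups did not pass. They were grouped here because those groups were at like levels, so this is no separate result. The 95% interval of the difference shows how much could have been missed. It was -0.26 to 0.14 (log2) for SOX4, -0.16 to 0.26 for HKDC1 and -0.45 to 0.16 for SPARC. For LIPG it was -0.46 to 0.26 and for MMP14 -0.54 to 0.30. It was wider at -0.69 to 0.32 for CPVL, -0.64 to 0.35 for TNNC1, -0.56 to 0.42 for TMPRSS13 and -0.46 to 0.46 for FAM221A. The log2 fold change of the empty-vector group itself against parental cells was -1.84 for SOX4 and -3.94 for LIPG. RND3, a small GTPase, was at 17.8 and 19.6, then at 3.13 to 5.42, then at 5.33 to 6.48. Its interval was 0.12 to 0.89, and the difference had an adjusted p of 0.134. TMEM135 and EML1 were also among the 12 largest falls, but with wider spread. TMEM135 was at 163 and 80.1 in parental cells and at 23.3 to 39.4 with wild-type KDM5A, and its adjusted p of 0.02 became 0.108 without parental library 1, 0.0649 without wild-type library 1 and 0.0616 without wild-type library 3. EML1, at 10.7 in both parental libraries and at 1.46 to 4.06 with wild-type KDM5A, passed at 0.032 and lost its call without either parental library (0.0945 and 0.119) and without wild-type library 1 (0.0737) or 2 (0.0507).

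**Figure D2:**
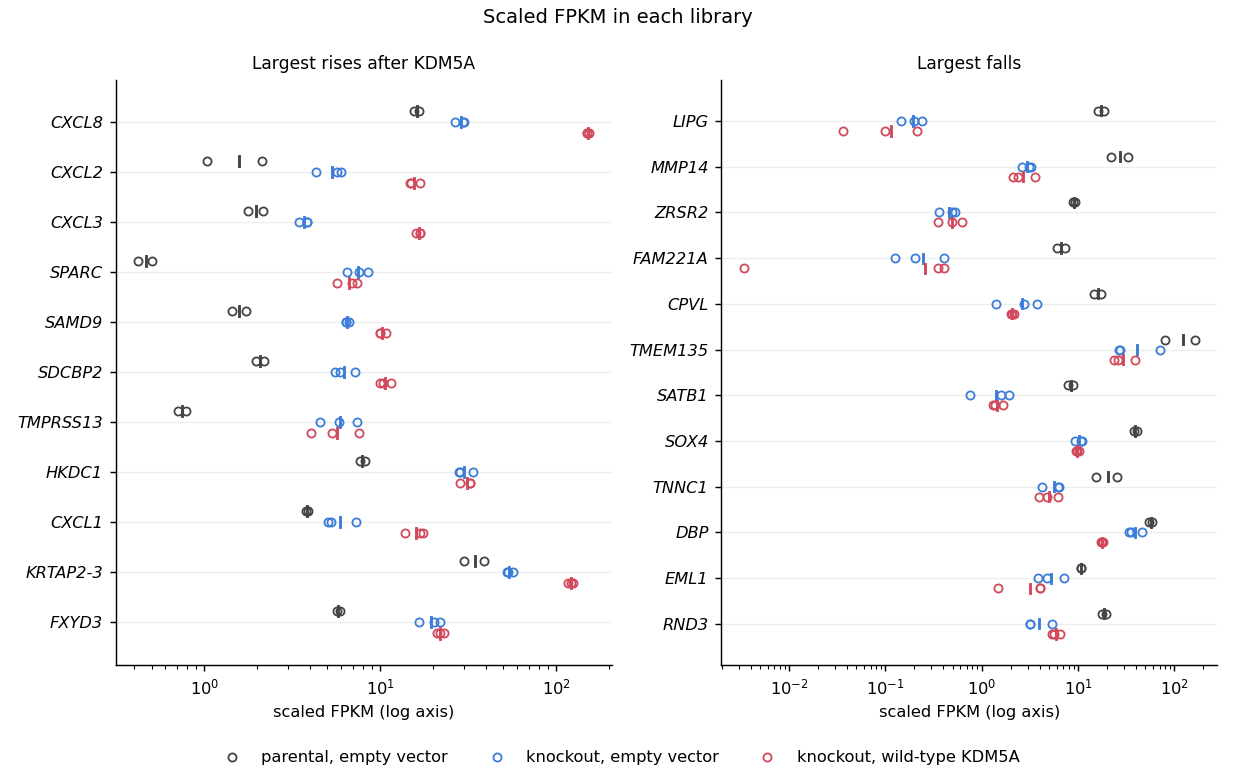
Scaled FPKM in each library (log axis) for the genes with the largest rises after KDM5A and the largest falls in knockout cells with wild-type KDM5A against parental cells; points are libraries and bars group means. SPARC, HKDC1, FXYD3, LIPG, MMP14 and SOX4 have the 2 knockout groups at like levels, while for CXCL8, CXCL3, CXCL1 and KRTAP2-3 the wild-type libraries lie beyond the empty-vector ones.

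A different order of levels was found for a set of secreted chemokines, the signals that draw neutrophils. CXCL8 (interleukin 8) was at 15.5 and 16.6 in parental cells, at 29.4, 26.6 and 29.8 in knockout cells with empty vector, and at 150, 154 and 149 with wild-type KDM5A. The 3 groups did not overlap, and the wild-type group was the farthest from parental cells (3.16 ± 0.10, adjusted p = 1.5e-06; 0.79 for empty vector). CXCL3 was at 1.76 and 2.14, then at 3.84, 3.45 and 3.82, then at 16.0, 16.8 and 16.9, a rise of 2.58 ± 0.10. CXCL2 was at 2.12 and 1.04, then at 4.28 to 6.01, then at 14.7 to 16.9. CXCL1 was at 3.88 and 3.79, then at 5.05 to 7.26, then at 13.8 to 17.4. SDCBP2, a syntenin, was at 1.97 and 2.19, then at 5.49 to 7.15, then at 10 to 11.5. The sequences of CXCL1, CXCL2 and CXCL3 are close to each other, so the split of fragments between them is uncertain. Wild-type and empty-vector cells differed by 2.36 for CXCL8 (95% interval 2.16 to 2.57) and by 1.90 for CXCL3 (1.69 to 2.11).

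The 4 CXC genes share a promoter feature. The RefSeq promoters (GRCh38.p14, 250 bases before to 50 after the gene start) of all 4 hold a kappa-B element, the site that NF-kB dimers bind, searched as GGGACTTTC or GGAATTTCC on both strands. The stretches from 10 bases before that element up to the gene start are printed 5′ to 3′ on the gene's strand, with the element in capitals, because the element is the same in all 4, while the bases around it are alike in CXCL1, CXCL2 and CXCL3 and differ in CXCL8. They lie at chr4:73740468-73740568 (+) for CXCL8, chr4:73869305-73869392 (+) for CXCL1, chr4:74099196-74099282 (-) for CXCL2 and chr4:74038690-74038777 (-) for CXCL3.
CXCL8: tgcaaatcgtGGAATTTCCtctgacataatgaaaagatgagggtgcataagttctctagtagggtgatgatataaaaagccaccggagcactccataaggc
CXCL1: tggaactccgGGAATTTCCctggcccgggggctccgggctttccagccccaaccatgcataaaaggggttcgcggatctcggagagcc
CXCL2: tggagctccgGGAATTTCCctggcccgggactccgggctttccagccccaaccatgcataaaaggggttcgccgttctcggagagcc
CXCL3: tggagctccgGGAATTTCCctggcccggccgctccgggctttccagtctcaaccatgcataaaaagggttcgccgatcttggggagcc

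The element starts 91, 78, 77 and 78 bases before the gene start in CXCL8, CXCL1, CXCL2 and CXCL3. The element is held by 0.839% of all 27305 RefSeq promoters, and over the promoters matched to protein-coding genes tested 0.794%. Of the promoters of protein-coding genes that were higher, 1.41% hold it, and of those that were lower, 1.15%. Of the promoters matched for tested chemokine and cytokine genes, 44.4% hold it (4 of 9), and for those that were higher 66.7% (4 of 6). CXCL1, CXCL2 and CXCL3 are alike in sequence around the element, so their matches are not separate observations. A match of letters is a description of the sequence and does not show that a factor was bound.

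Of 13 chemokine and cytokine genes tested, 7 were higher and 0 lower, with a median log2 fold change of 0.87. The median over all genes was -0.003. With empty vector 3 were higher and 0 lower, with a median of 0.27. The share of the list called with wild-type KDM5A was 53.8%. Beside this and each later list stand the 14.5% of all genes and 17.3% of protein-coding genes that passed. The next 2 genes were chosen after their values were seen. CCL20, a chemokine for lymphocytes and dendritic cells, was at 0.30 and 0.323 in parental cells, at 0.80 to 1.05 with empty vector and at 3.68, 4.01 and 5.19 with wild-type KDM5A. LCN2, an iron-binding lipocalin, was at 14.3 and 15.4, then at 9.02 to 12.7, then at 29.8 to 36.9, and rose by 1.16 (adjusted p = 0.00146).

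In the NF-kB pathway, transcription factor dimers are held in the cytoplasm by inhibitor proteins that are themselves induced as feedback. With wild-type KDM5A, 10 of 20 subunit and feedback genes were higher and 1 was lower, and the same numbers were called with empty vector. Their medians were 0.28 and 0.35. NFKBIA, the main inhibitor, was at 64.1 and 67.3 in parental cells, at 109 to 117 with empty vector and at 130, 130 and 133 with wild-type KDM5A (0.99 ± 0.08, adjusted p = 0.00013). NFKBIZ, a nuclear cofactor, was at 8.03 and 7.18, then at 11 to 13.8, then at 23.4 to 32.9. NFKBIB, another inhibitor, was at 69.8 and 68.2, then at 88.2 to 93.7, then at 111 to 116. For these 3 genes the order from parental to empty vector to wild-type held in every library. Between the 2 knockout groups NFKBIB and NFKBIZ passed and NFKBIA did not (0.21, adjusted p = 0.122). The median of that difference over the list was 0.02. With empty vector ICAM1 was at 0.239 to 0.983 (-1.76, adjusted p = 0.00736). ICAM1, an adhesion molecule named because it moved against the list, was the 1 member that fell, from 4.22 and 4.13 to 0.67 to 1.24 (1.41 on the log2 scale, adjusted p = 0.0123, which became 0.0615 without parental library 2).

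Some genes had another order of levels, near the parental level with empty vector and away from it with wild-type KDM5A. Interferon-stimulated genes are the antiviral set that type I interferon turns on through a factor that binds the response element GAAANNGAA. In the re-expressing cells 16 of 38 were higher and 1 was lower, with a median of 0.41, against 5 higher and 4 lower with empty vector and a median of -0.03. The member that fell, named because it moved against the list, was IFITM2, a membrane protein that blocks viral entry (-0.35, adjusted p = 0.00861, which became 0.0505 without parental library 2). With empty vector IFITM2 was lower too (-0.43, adjusted p = 0.00556). IFIT1, which binds foreign RNA ends, was at 8.98 and 8.85 in parental cells, at 11, 9.99 and 9.49 with empty vector and at 24.0, 24.4 and 23.4 with wild-type KDM5A. IFIT1 rose by 1.33 ± 0.08 (adjusted p = 3.6e-05), while the empty-vector difference of 0.17 did not pass. IFI6, a mitochondrial survival protein, was at 40.3 and 39.3, then at 32.1 to 36.5, then at 81.7 to 94.7. IFIT3 was at 3.29 and 4.12, then at 3.42 to 4.62, then at 8.26 to 9.62. IFIT2 was at 6.23 and 5.98, then at 9.89 to 11.2, then at 17.9 to 18.7. SAMD9, an antiviral restriction factor, belonged to the largest rises, from 1.44 and 1.72 to 6.36 to 6.59 with empty vector and 9.96 to 10.8 with wild-type KDM5A. IFIT2 (0.71, adjusted p = 0.0022) and SAMD9 (1.53, adjusted p = 0.000163) had already passed with empty vector. Of the promoters matched for tested members, 70.0% hold the response element on either strand (21 of 30), as do 71.4% for those that were higher (10 of 14), against 8.29% of all promoters. The share among members that rose was thus near that of the list as a whole. The stretches for IFIT1 (chr10:89392498-89392622, +) and IFIT3 (chr10:89327832-89327996, +) are printed because each holds 2 copies, which read on the other strand and are in capitals.
IFIT1: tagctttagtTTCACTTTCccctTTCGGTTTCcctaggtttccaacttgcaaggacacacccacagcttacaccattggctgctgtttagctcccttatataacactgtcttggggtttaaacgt
IFIT3: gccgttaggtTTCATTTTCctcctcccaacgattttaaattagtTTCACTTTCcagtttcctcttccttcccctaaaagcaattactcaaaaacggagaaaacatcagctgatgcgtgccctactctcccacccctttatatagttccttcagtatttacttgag

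Chaperones of the cytosol, which refold damaged proteins and are induced by HSF1 through the element GAANNTTC, were higher in the re-expressing cells too. Among 22 tested, 11 rose and 0 fell with wild-type KDM5A (median 0.29), and 0 were higher and 2 lower with empty vector (median -0.02). Without wild-type library 1 or 2 the count was 7 higher and 0 lower. HSPA1B, an inducible HSP70, was at 208 and 274 in parental cells, at 175, 184 and 181 with empty vector, and at 692, 688 and 719 with wild-type KDM5A. The empty-vector libraries lay below the parental ones, and the wild-type libraries lay above both (1.55 ± 0.10, adjusted p = 4.1e-05). HSPA1A, its near-identical copy, which is named for that reason, was at 147 and 233, then at 116 to 127, then at 470 to 518. The split of fragments between these 2 copies is uncertain, and they moved the same way. DNAJB1, the HSP40 cochaperone, was at 135 and 134, then at 141 to 144, then at 246 to 255. BAG3, which exchanges nucleotides on HSP70, was at 137 and 133, then at 143 to 144, then at 194 to 199. HSPA8, the constitutive HSP70, was at 1094 and 1043, then at 1151 to 1193, then at 1466 to 1598.

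Of the chaperone promoters matched, 40.0% hold GAANNTTC (8 of 20), and 60% of those of members that were higher (6 of 10). Of all promoters 6.87% hold it, and of those matched to protein-coding genes tested 4.62%. The list is of a class induced through this element, so its share describes the list. Whether members that rose differ from the rest of the list was not tested. The 250 bases before the start of DNAJB1 hold no match. The stretches of HSPA1B (chr6:31827623-31827737, +) and HSPA1A (chr6:31815427-31815542, +) show how alike the 2 copies are around the element, which is in capitals.
HSPA1B: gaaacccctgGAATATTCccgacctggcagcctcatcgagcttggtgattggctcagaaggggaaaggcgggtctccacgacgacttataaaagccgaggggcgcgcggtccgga
HSPA1A: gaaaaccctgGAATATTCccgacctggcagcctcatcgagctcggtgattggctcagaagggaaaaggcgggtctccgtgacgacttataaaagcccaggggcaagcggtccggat

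Genes of the endoplasmic reticulum unfolded protein response, the chaperones and sensors of the secretory pathway, gave 7 higher and 0 lower of 20 with wild-type KDM5A (median 0.20), and 0 higher and 4 lower with empty vector (median -0.10). HSPA5 (BiP) was at 644 and 674 in parental cells, at 633, 587 and 611 with empty vector, and at 874, 923 and 926 with wild-type KDM5A (0.46 ± 0.06, adjusted p = 0.0019). HYOU1 was at 200 and 195, then at 196 to 203, then at 273 to 281. DNAJC3 and DNAJB9, cochaperones of BiP, rose by 0.53 and 0.58. Genes of the integrated stress response, which ATF4 drives, were split: 5 were higher and 5 lower of 26. PPP1R15A, the phosphatase subunit that ends the response, was at 90.7 and 84.6, then at 143 to 150, then at 141 to 150. CHAC1, a glutathione-degrading enzyme, fell from 40.1 and 34.5 to 26.1 to 29.2 with empty vector and 19.1 to 23.3 with wild-type KDM5A. CEBPB, a partner of ATF4, was at 134 and 127, then at 126 to 128, then at 99.2 to 105.

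**Figure D3:**
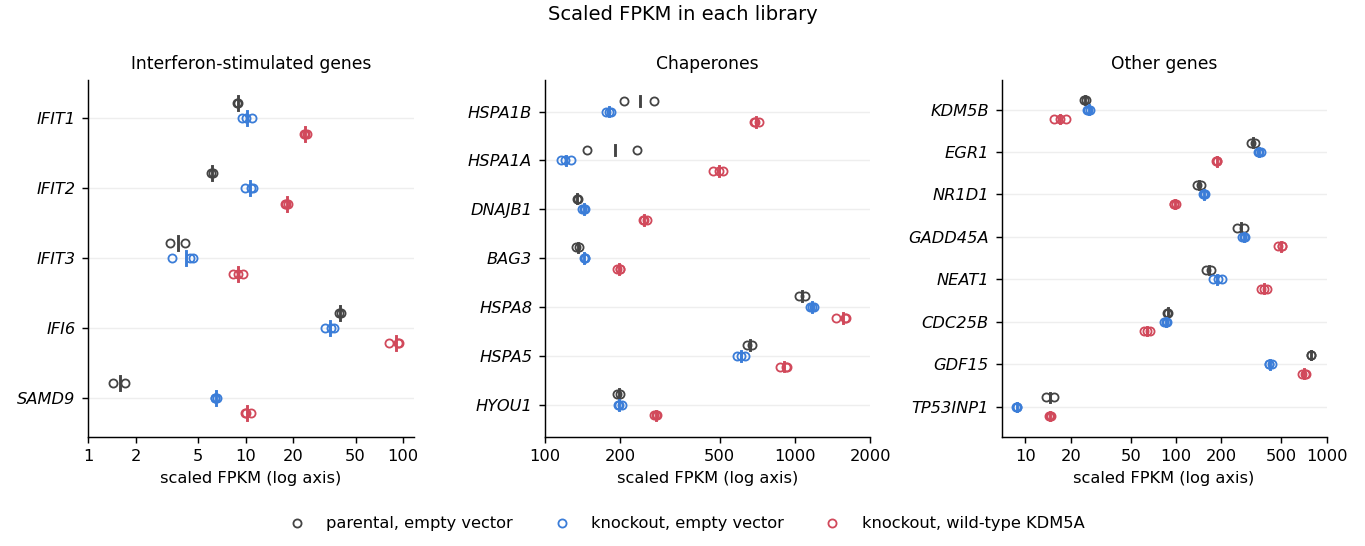
Scaled FPKM in each library (log axis) for interferon-stimulated genes, chaperones and other genes named in the text; points are libraries and bars group means. For IFIT1, IFI6, DNAJB1, HYOU1, EGR1 and NR1D1 the parental and empty-vector libraries lie together and the 3 wild-type libraries apart, while for GDF15 and TP53INP1 the wild-type libraries lie near the parental ones.

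NEAT1 and GADD45A had the same order. NEAT1, the long RNA that builds nuclear paraspeckles, was at 172 and 158 in parental cells, at 175 to 201 with empty vector and at 404, 385 and 369 with wild-type KDM5A (1.22 ± 0.07, adjusted p = 3e-05). GADD45A, a p53 and stress target, was at 282 and 254, then at 273 to 287, then at 476 to 508. Of 33 p53 targets, 7 were higher and 3 lower, and among them PLK2 and SFN had empty-vector levels between the other groups. The count was 11 and 1 without parental library 1, and 7 and 1 without parental library 2, wild-type library 1 or wild-type library 2. PLK2 was at 89.7 and 64.5, then at 160 to 203, then at 216 to 226. Of 15 BCL2 family genes, 4 were higher and 1 lower. The BH3-only genes PMAIP1 and BBC3, which promote cell death, rose by 0.68 and 0.44, BAK1 rose by 0.53, and BCL2L1, which restrains it, fell by 0.41. With empty vector PMAIP1 (0.34), BAK1 (0.45) and BCL2L1 (-0.21) also passed, and BBC3 (-0.17, adjusted p = 0.171) did not.

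In the circadian clock, where PER and REV-ERB proteins repress the activators that induce them through the E-box CACGTG, 1 of 17 genes was higher and 5 were lower (median -0.33; -0.05 with empty vector), and 3 were lower without parental library 1. DBP, an output factor of the clock, was among the 12 largest falls, from 58.4 and 54.9 to 34.0 to 46.5 with empty vector and 17.4, 18.2 and 17.5 with wild-type KDM5A (-1.62 ± 0.13, adjusted p = 0.00021). NR1D1 (REV-ERB alpha) was at 147 and 138, then at 150 to 155, then at 96.3 to 99.6. PER1 was at 83.3 and 78.8, then at 64.5 to 75.6, then at 44.5 to 53.1. BHLHE40, an E-box repressor, was the member that rose, by 0.27, a call that was lost on the values as deposited. Its rise with empty vector was 0.39 (adjusted p = 0.00194). Of all promoters 7.43% hold CACGTG, against 23.5% of those of the clock genes (4 of 17), 12.2% of those of the protein-coding genes higher and 8.52% of those lower. Of the promoters matched for the protein-coding genes tested, 10.1% hold it.

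Immediate early genes, which growth factors switch on within minutes, changed in both directions, with 10 higher and 6 lower of 29, and 9 and 3 without parental library 2 or 8 and 3 without wild-type library 2. FOSL1, an AP-1 subunit, was at 290 and 302, then at 457 to 470, then at 563 to 573 (0.94 ± 0.04, adjusted p = 9.6e-06). CYR61, a matricellular YAP target, was at 58.4 and 56.8, then at 101 to 102, then at 122 to 126. EGR1, a zinc finger transcription factor, was at 337 and 313, then at 348 to 366, and then at 183, 188 and 187, a fall of 0.80 ± 0.05. EGR2 was at 7.59 and 5.01, then at 4.99 to 5.67, then at 2.29 to 2.49. HBEGF, an EGF receptor ligand, rose by 0.64. The feedback genes of the ERK pathway gave 3 higher and 5 lower of 20, and 1 and 4 without parental library 2. DUSP6, the ERK phosphatase, was at 149 and 143, then at 70.5 to 77.4, then at 50.6 to 63.1 (-1.36 ± 0.10, adjusted p = 8.6e-05). SPRY4 fell by 1.09 and ETV4 by 0.56, whereas DUSP1, a phosphatase that stress also induces, rose by 1.14, from 22.4 and 16.5 to 42.7 to 45.2. All of these had passed with empty vector: SPRY4 at -0.74, ETV4 at -0.27 and DUSP1 at 0.90.

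In the BMP branch of TGF-beta signalling, ID1, ID2 and ID3, which block differentiation factors of the helix-loop-helix class, were lower. ID1 was at 575 and 591, then at 392 to 397, then at 302 to 318 (-0.91 ± 0.04, adjusted p = 1.2e-05). ID3 was at 120 and 102, then at 67.8 to 70.2, then at 50.4 to 55.5. ID2 was at 161 and 170, then at 91.2 to 103, then at 93.2 to 107. Of the 26 genes of the list 3 were higher and 6 lower, and 1 and 5 without parental library 2. Of 25 Wnt targets and regulators 3 were higher and 9 lower (median -0.30; -0.14 with empty vector). The negative regulators RNF43 and NOTUM were at 32.3 and 36.0 and at 11 and 9.90 in parental cells, at 15.6 to 18.8 and 4.72 to 5.56 with empty vector, and at 9.88 to 12.1 and 3.39 to 3.90 with wild-type KDM5A. DKK1, another secreted inhibitor, was the opposite, at 73.5 and 85.7, then at 120 to 124, then at 122 to 123. SOX9, a progenitor factor of the intestine, fell by 0.46, and by 0.29 with empty vector. Without parental library 1 the Wnt list gave 2 higher and 5 lower, and without wild-type library 1 or 3 it gave 1 and 7. Of 18 Notch pathway genes 1 was higher and 5 lower, with the feedback gene NRARP lower by 0.63 (-0.63 ± 0.09, adjusted p = 0.0031). NRARP was lower with empty vector too (-0.54, adjusted p = 0.009). Without parental library 1 the Notch count was 1 higher and 3 lower, without parental library 2 it was 0 higher and 2 lower, and without 1 wild-type library 0 or 1 higher and 2 or 3 lower.

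Among 36 epithelial adhesion and keratin genes the re-expressing cells had 11 higher and 3 lower, against 8 and 3 with empty vector. The laminin chain LAMB3 was at 70.2 and 63.8 in parental cells, at 122 to 129 with empty vector, and at 138 to 145 with wild-type KDM5A. ELF3, an epithelial ETS factor, was at 79.5 and 66.4, then at 129 to 130, then at 146 to 150. CLDN3, a tight junction claudin, went the other way, at 28.4 and 31.9, then at 18.6 to 19.8, then at 18.2 to 20.1. Of 31 mesenchymal and matrix genes 3 were higher and 12 lower, against 1 and 10 with empty vector. COL18A1, a basement membrane collagen, was at 69.4 and 63.5, then at 35.1 to 39.1, then at 38.9 to 41.7. PLAU, the urokinase protease, rose from 145 and 142 to 155 to 162 and then 208 to 222.

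In cholesterol synthesis, 14 of 28 genes were higher and 1 lower (median 0.24), and 10 and 1 with empty vector (median 0.22). HMGCS1, the first dedicated enzyme, was at 163 and 165, then at 235 to 254, then at 314 to 319 (0.95 ± 0.07, adjusted p = 9.9e-05). SQLE, the squalene epoxidase of the pathway, was the member that fell, from 80.7 and 77.1 to 42.9 to 46.8 with empty vector and 41.7 to 46.5 with wild-type KDM5A. Of 23 NRF2 targets, which respond to oxidants, 8 were higher and 2 lower. The count was 5 and 2 without parental library 2 or wild-type library 3, 9 and 1 without parental library 1, and 6 and 1 without wild-type library 1 or 2. HMOX1, heme oxygenase, was at 84.9 and 86.5, then at 129 to 133, then at 139 to 146, and AKR1B10 was at 1.20 and 1.29, then at 1.89 to 2.24, then at 4.23 to 5.81. Hypoxia and glycolysis genes gave 4 higher and 6 lower of 30 (3 and 2 without parental library 2, and 2 higher with 2 or 3 lower without 1 wild-type library). The glucose transporter SLC2A1 was higher by 0.63 and the enolase ENO2 lower by 0.62. Both had passed with empty vector (0.35 and -0.60).

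Genes of the cell cycle, a program with which KDM5A is linked through the retinoblastoma protein, showed few calls. The re-expressing cells had 4 higher and 1 lower of 36 G1/S and replication genes, against 9 and 0 with empty vector. Without parental library 1 the count was 7 higher and 0 lower, and without parental library 2, wild-type library 2 or wild-type library 3 it was 3 and 0. MCM5, a subunit of the replicative helicase, was at 69.8 and 62.9, then at 98.9 to 105, then at 89.3 to 105, and MCM2 was at 68.2 and 62.2, then at 88.3 to 91.5, then at 84.5 to 85.2. Of 40 G2/M and mitosis genes 1 was higher and 5 lower, against 5 and 1 with empty vector, and 1 and 3 without parental library 2, wild-type library 1 or wild-type library 3. CDC25B, a phosphatase that activates CDK1, was at 87.4 and 89.0, then at 82.8 to 87.2, then at 61.4 to 67.3 (-0.45 ± 0.05, adjusted p = 0.0014). CDK1 was at 72.4 and 65.7, then at 68.5 to 75.3, then at 53.8 to 56.5. Of 19 genes of the RB pathway and its CDK inhibitors 5 were higher and 2 lower, which became 1 and 2 without parental library 2, wild-type library 2 or wild-type library 3. CDKN2A, the INK4A and ARF locus, was at 91.2 and 107, then at 125 to 130, then at 135 to 143. CDKN1C, the inhibitor p57, was at 27.0 and 19.4, then at 11.6 to 14.1, then at 9.70 to 12.6. Both shares of called genes, 13.9% for G1/S and 15.0% for G2/M, were near the 14.5% of all genes and below the 17.3% of protein-coding genes.

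Replication-dependent histone genes gave 8 higher and 0 lower of 44 (median 0.40), and 7 and 0 with empty vector (median 0.46). HIST1H2BK was at 33.6 and 32.3, then at 57.1 to 67.2, then at 72.7 to 95.7, and HIST1H1C, a linker histone, was at 21.5 and 25.7, then at 42.4 to 51.2, then at 42.1 to 49.8. Without parental library 2 or wild-type library 2 the count was 5 higher and 0 lower. Of 27 HOX genes 1 was higher and 3 lower, and 1 and 1 without parental library 2, wild-type library 1 or wild-type library 2. HOXA3 was the member that rose, from 9.56 and 7.35 to 24.3 to 25.1 with empty vector and 18.8 to 19.4 with wild-type KDM5A (1.10 ± 0.10, adjusted p = 0.00031). HOXB9 was at 37.1 and 32.3, then at 30.7 to 31.9, then at 22.3 to 25.2. The shares called were 18.2% for the histone list and 14.8% for the HOX list, near the 14.5% of all genes and 17.3% of protein-coding genes.

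Of 22 enzymes and readers of H3K4 methylation 5 were higher and 2 lower (31.8% called). Of 20 genes of the complexes KDM5A works in 1 was higher and 3 lower (20%, near the 17.3% of protein-coding genes). Without parental library 2 these counts were 1 and 0, and 0 and 0. Without 1 wild-type library they were 1 or 2 higher with 0 or 1 lower, and 0 or 1 higher with 0 lower, and without parental library 1 the second was 0 and 1. MHC class I presentation gave 3 higher and 0 lower of 20, against 0 and 5 with empty vector, and 5 and 0 without parental library 1. With all libraries, 15% of this list passed with wild-type KDM5A, near the 14.5% of all genes and below the 17.3% of protein-coding genes. TAP2, a chain of the peptide transporter, was at 38.1 and 32.6, then at 43.8 to 50.3, then at 51.0 to 60.1. Its difference between the 2 knockout groups did not pass (0.29, adjusted p = 0.133). None of 81 cytosolic ribosomal protein genes passed in limma. RPL22L1, with the smallest p, was at 643 and 839 in parental cells and at 550 to 597 with wild-type KDM5A (adjusted p = 0.074). The count for this list depended on the parental library, as did that for the nuclear genes of oxidative phosphorylation. Without parental library 1, 40 of the 81 were lower and 0 higher, and without parental library 2, 2 were higher and 0 lower. For oxidative phosphorylation the count of 77 was 1 higher and 3 lower, 1 and 19 without parental library 1, and 3 and 0 without parental library 2. Without 1 wild-type library it was 0 or 1 higher and 0 or 1 lower. CD14 was the marker of another cell type that was higher, at 1.94 and 1.81, then at 1.17 to 1.88, then at 3.87 to 4.79, with an adjusted p of 0.023 that rose to 0.1 without parental library 2, 0.0622 without library 1, 0.0726 without wild-type library 1 and 0.0598 without wild-type library 2.

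**Figure D4:**
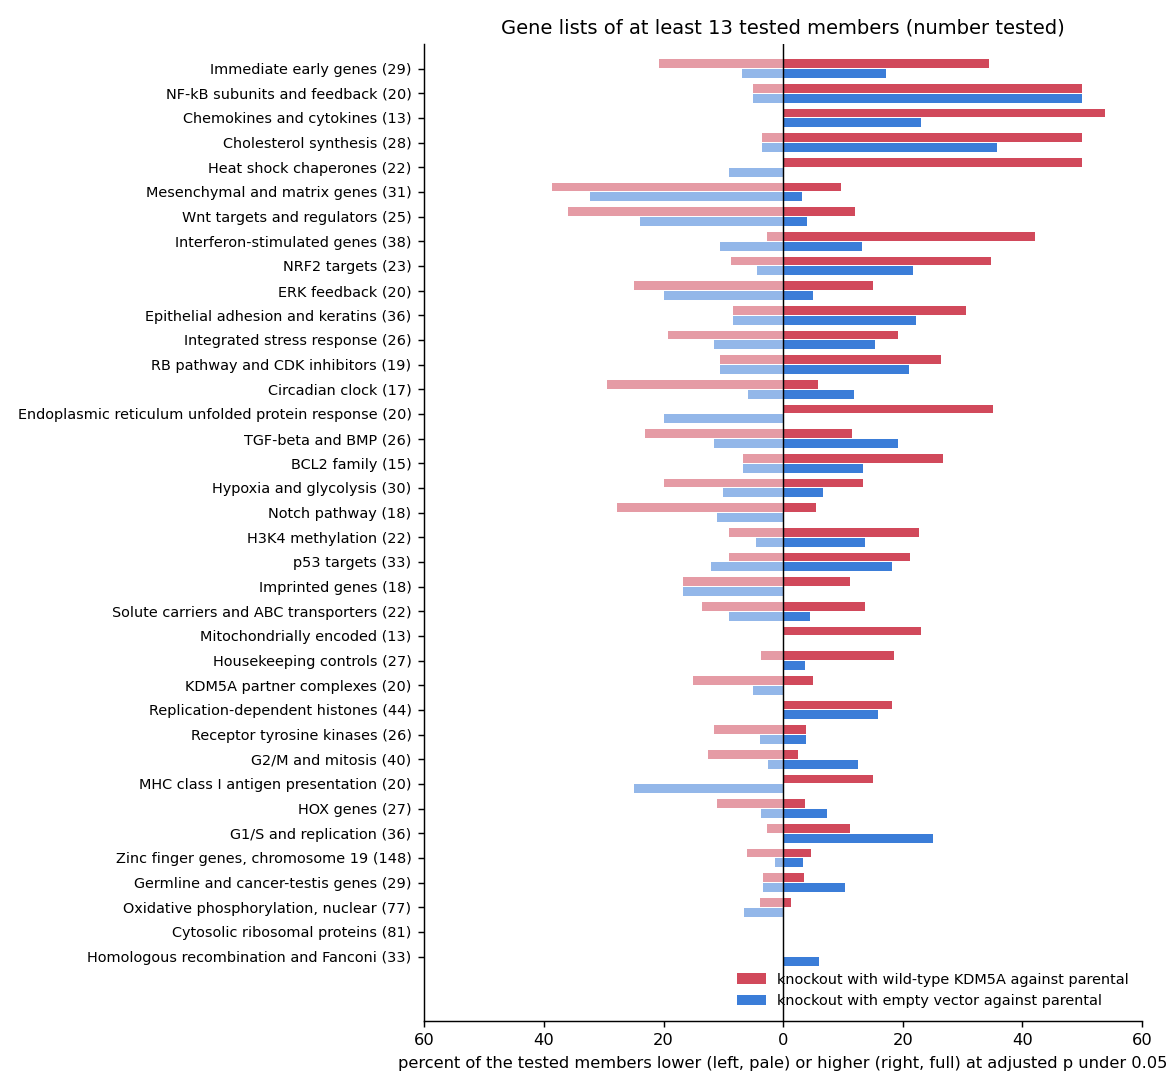
Percent of the tested members of each gene list that were higher (right) or lower (left) than in parental cells, for knockout cells with wild-type KDM5A (red) and with empty vector (blue), in order of the share called with wild-type KDM5A. Chaperones and unfolded protein response genes were called higher with wild-type KDM5A (11 of 22 and 7 of 20) and 0 of them with empty vector, while NF-kB genes have 10 higher in both. Over all genes tested, 14.5% passed with wild-type KDM5A and 8.94% with empty vector.

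Movement toward the parental level was seen for some genes. The following 4 were chosen after their values were seen, and their values are a description. GDF15, a stress cytokine, was at 786 and 789 in parental cells, at 413, 432 and 414 with empty vector and at 682, 717 and 733 with wild-type KDM5A. TP53INP1, a p53-induced autophagy protein, was at 15.5 and 13.8, then at 8.70, 8.75 and 8.77, then at 14.3, 14.6 and 14.9. The wild-type libraries of TP53INP1 lay within the range of the parental ones. SMG8, a regulator of nonsense-mediated decay, was at 17.6 and 18.0, then at 30.1 to 30.8, then at 20.1 to 21.5. HLA-F, a class I molecule, was at 23.7 and 23.6, then at 10.7 to 13.7, then at 17.4 to 22.7.

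Some genes that passed in the same direction were neighbours. Of the 13109 protein-coding genes tested 9.87% were higher and 7.47% lower. Of 12889 overlapping windows of 10 neighbouring ones, 64 held at least 5 higher and 25 at least 5 lower, which joined into 31 runs. The run with the largest median lay at chr17:41054498-41624842 and held 9 genes, of which the keratin-associated genes KRTAP2-2, KRTAP2-3 and KRTAP2-4 and the keratins KRT15, KRT16 and KRT17 were higher (median 1.17; 0.50 with empty vector). KRTAP2-3 was at 29.8 and 38.9, then at 52.4 to 56.5, then at 117, 124 and 121, among the 12 largest rises. KRTAP2-2, at 4.83 and 3.58, then at 2.73 to 7.18, then at 8.68 to 12.3, passed at an adjusted p of 0.0443 and lost its call without any 1 of the 5 libraries compared (0.0714 to 0.206). KRT15, a basal keratin, was at 15.1 and 16.6, then at 19.7 to 26.8, then at 33.5 to 42.0. KRT16 and KRT17 stayed low, at most 4.54, and the genes of this cluster have close copies, so single values are uncertain. KRT19, in the same run, did not pass (0.04, adjusted p = 0.747).

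The second run, at chr4:73740506-75514764, held 11 genes. It joined CXCL8, CXCL1, CXCL3 and CXCL2 with the EGF receptor ligands EREG, AREG and BTC and the ubiquitin ligase RCHY1, 8 higher in all and 1, PARM1, lower, with AREG, RCHY1 and PARM1 named as the rest of the run (median 0.79; 0.43 with empty vector). EREG (epiregulin) was at 200 and 181, then at 246 to 268, then at 325 to 335, and BTC (betacellulin) at 3.83 and 2.96, then at 4.67 to 5.22, then at 6.37 to 7.25. AREG (0.23) and RCHY1 (0.39) were the weakest of the 8, with adjusted p of 0.0349 and 0.0457. AREG lost its call without parental library 1 (0.125) or any 1 wild-type library (0.0696 to 0.103), and RCHY1 without any 1 of the 5 libraries (0.0856 to 0.173). At chr10:89301955-90921276 the 5 genes higher of 9 included IFIT1, IFIT2 and IFIT3. At chr2:147844517-151261879 the 5 genes lower of 10 included RND3, the activin receptor ACVR2A and LYPD6B, and here both knockout groups were at like levels: ACVR2A was at 8.95 and 8.61, then at 4.25 to 5.18, then at 4.35 to 5.71.

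**Figure D5:**
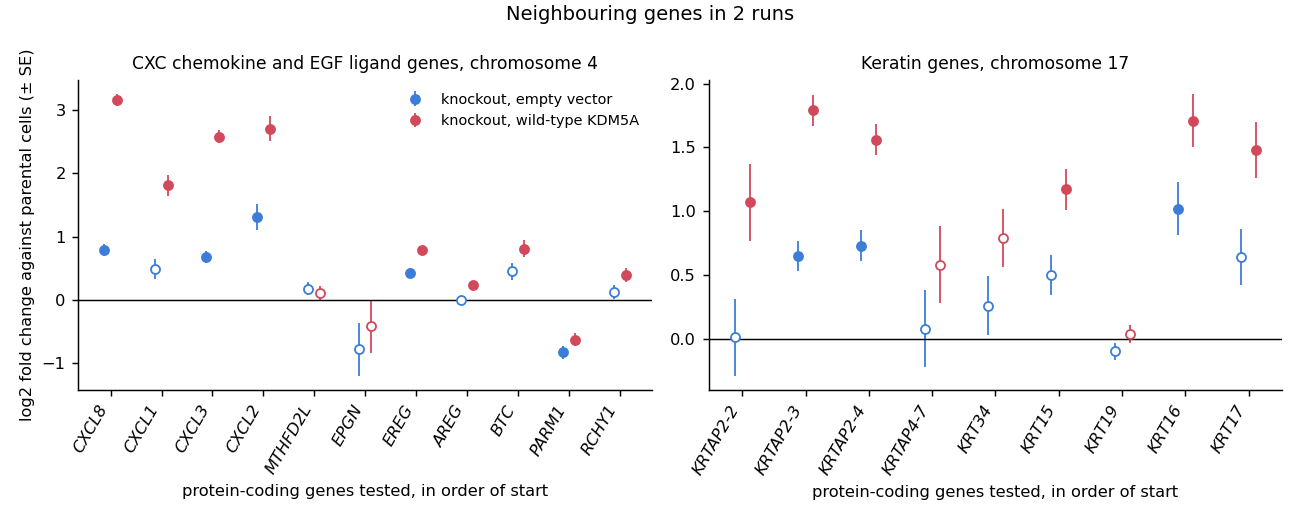
Log2 fold change against parental cells with its SE for the protein-coding genes of 2 runs in order of their start; red is knockout with wild-type KDM5A, blue knockout with empty vector, and filled points passed at an adjusted p under 0.05. CXCL8, CXCL1, CXCL3 and CXCL2 lie at 1.81 to 3.16 with wild-type KDM5A, and MTHFD2L and EPGN, next to them, near or below 0.

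A run on the X chromosome, chrX:304529-2741309, lies in the pseudoautosomal region, where the tables list the same genes on X and Y and both were summed. Of its 10 genes 5 were lower (median -0.60; -0.62 with empty vector), and the 2 parental libraries differed from each other there. CD99, a surface glycoprotein, was at 116 and 197 in parental cells, at 73.6 to 75.6 with empty vector and at 73.2 to 91.7 with wild-type KDM5A. SLC25A6, a mitochondrial carrier, was at 566 and 922, then at 434 to 458, then at 462 to 504, and ASMTL at 74.8 and 134, then at 51.8 to 53.9, then at 49.9 to 57.1. Parental library 2 was the higher for each of the 3. Their calls depended on single libraries: the adjusted p of SLC25A6 was 0.0441, 0.0771 without parental library 2 and 0.0872 to 0.116 without a wild-type library, that of CD99 was 0.0561 without wild-type library 3, and that of ASMTL 0.0508 without wild-type library 2.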

How the data were processed

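RNA-seq was measured in 10 libraries of HCT116 cells. For every library the authors deposited log2 FPKM by locus and gene symbol, per the file headers. Taken as log2(FPKM + 1), the values sum to between 999975 and 1000008 per library on the linear scale. FPKM alone does not fix such a sum, so the unit rests on the headers. Cufflinks 2.2.1 and STAR 2.7.1a are named in the submitters' processing notes, as are GATK 4.1.2 and Picard, with the build GRCh38. Strand and annotation release are not given in the sources used here.

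Values were made linear, summed per symbol and scaled by the median ratio over 13651 genes at 1 or more in every library. Genes at 1 or more in at least 2 libraries were tested in R 4.3.3 with limma 3.58.1 (trend, eBayes) on log2(scaled value + 1), all 10 libraries in 1 fit of 4 groups with 6 residual degrees of freedom, two-sided, with Benjamini-Hochberg adjustment over 17779 genes. The fit was tested on simulated data. Intervals use its SE and moderated degrees of freedom. Gene types came from GENCODE 29 (94.0% of loci matched) and promoters from RefSeq, GRCh38.p14. Tables, motif searches and figures used Python 3.11.15 with pandas 2.3.3, numpy 2.4.6, scipy 1.17.1 and matplotlib 3.10.9. Alternatives changed the scaling, pseudocount, filter, weights, threshold, libraries or replicate block.

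Members and gene lists were chosen with earlier results of these data known. Named genes were the KDM5 genes, the 12 largest protein-coding rises and falls that passed, did not overlap and had a mean of at least 5 in the higher group, up to 4 members per list by smallest p (2 where none passed), and up to 6 per run. Names outside this rule are said to be so where they appear, and some genes that meet it are not reported here.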

Additional observations from a re-analysis of the deposited data

How the results depend on the processing

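Against parental cells, knockout cells with wild-type KDM5A gave 2586 calls. The count was 1653 with only the libraries compared in the fit, 3961 at an adjusted p under 0.1 and 259 with an absolute log2 fold change of at least 1; leaving out 1 library in turn it ran from 1433 (without parental library 2) to 2552 (without parental library 1). Knockout cells with empty vector gave 1589, and 1042 with array weights, 464 with only the libraries compared, 2727 at 0.1, 145 with the fold limit, 685 to 1901 without 1 library, and 1047 without parental library 2 and the mutant libraries, a setting chosen after seeing the data. With the replicate block the counts were 1370 and 556. Whether the replicate numbers pair the samples is not known. Deviations of knockout libraries with wild-type KDM5A and parental libraries from their group means correlated at -0.009 to 0.009. The deviations of the 2 parental libraries mirror each other, so these values cannot decide the pairing. The mean distance between parental libraries was 0.186, and 0.251 as deposited, 0.155 for genes with a mean of at least 5 and 0.188 after quantile normalization. With the mean of at least 5, parental libraries lay 0.193 from empty-vector and 0.211 from wild-type libraries, and those 2 groups 0.155 from each other (0.202 as deposited). TP53INP1, at 0.00, was at -0.029 as deposited, -0.001 with array weights, -0.007 with the replicate block, -0.074 in the setting chosen after seeing the data, and -0.074 to 0.076 without 1 library. The median of the ribosomal protein list, -0.11, ran from -0.27 when parental library 1 was dropped to 0.06 when library 2 was. Of 114 genes named above that passed, 41 passed in all 18 settings, 63 lost the call in at least 1 and 12 were not tested in at least 1. The fold limit took the call of 59 of them, and no other setting that of more than 9. The cause of these changes was not tested, except that the fold limit calls fewer genes, and the threshold of 0.1 more, by construction. The depth is unknown, so no limit from counting can be given.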
